A study of Mus musculus with 32 samples.

Results

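The genes described here are the cytochrome P450 genes of families 1 to 3 measured in mouse liver. They were chosen by name alone: array probes for genes whose symbol begins with Cyp1, Cyp2 or Cyp3 and a subfamily letter, with Cyp2b9, Cyp2b10 and Cyp2b13 left out. All 46 such names, read by 67 probes, had a probe well above background on at least 4 of the 32 arrays, out of 19226 gene names that met the same condition. They fall into 16 subfamilies, of which CYP2C has 11 genes, CYP2D 7, CYP3A 6, CYP2J 5 and CYP2A 4. Where a gene had several probes, the brightest stood for it.

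Cytochromes P450 are heme enzymes of the endoplasmic reticulum that insert an oxygen atom into lipophilic molecules, using electrons passed on by NADPH-cytochrome P450 reductase. Families 1 to 3 clear most drugs and pollutants, and several members also metabolise steroids, fatty acids, bile acids or vitamin D. Hepatocytes hold most of the body's stock of these enzymes, and inflammation is known to lower many of them. Family 1 is known as the set of target genes of the aryl hydrocarbon receptor. Many genes of family 3 respond to the pregnane X receptor and, through it, to drugs and steroids.

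The series asks what the transcription factor E2F1 does in the innate immune response to lipopolysaccharide (LPS, from the outer membrane of Gram-negative bacteria), given systemically. Liver RNA of 32 mice was hybridised to 1-colour Agilent arrays, 1 array per mouse. Wild-type mice (WT, E2f1+/+, strain label B6x126 F2) comprised 6 given saline, 4 taken 6 h after LPS and 6 taken 20 h after LPS. Knockout mice (KO, E2f1-/-, with a strain label that names B6 and 129 before the E2F1-/- allele) comprised 6, 4 and 6 in the same order. The saline mice are labelled 20 h, so the comparison at 6 h also differs in the time after injection. Genotype and strain background cannot be told apart, and the labels give no dose, age, sex or deleted part of E2f1.

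The extraction protocol in the labels names lung, the other labels liver. Alb, the hepatocyte gene for albumin, stood well above background on 32 of 32 arrays, and Sftpc and Sftpb, which define the alveolar epithelium of the lung, on 0. Of the other lung markers listed, Sftpd stood above background on 29 arrays, Sftpa1 on 27, Scgb1a1 on 15 and Ager on 3. Before the results, 3 KO libraries need naming. A score along the WT response at 6 h, over 5383 genes called there, was 0.885 for the library labelled KO saline 1 (the other 5 of its group lay between -0.01 and 0.06). It was 0.126 for the library labelled KO LPS 6 h 1 (the other 3 lay between 0.897 and 0.977). Both go against their labels, so KO changes and counts of called genes are given with all arrays and again without these 2 libraries, while levels, scan date values and figures of single arrays include them. The library KO LPS 20 h 4 scored 0.354 on the WT response at 20 h, the lowest of its group, and the count for KO at 20 h against saline is also given without it.

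Levels below are log2 signal relative to the 75th percentile of each array, so a level of 0 is the signal at that percentile. Levels of different genes come from different probes and are not set against each other. A gene is called where limma gave a Benjamini-Hochberg adjusted p under 0.05 over all 19226 names, and "rose" or "fell" is kept for called genes. Standard errors (SE) are those of the fit. In whole liver, fewer cells of a type and less RNA per cell cannot be told apart.

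The 46 genes lie in clusters. All 11 CYP2C genes are on chromosome 19, all 7 CYP2D genes on chromosome 15 and all 5 CYP2J genes on chromosome 4. The 6 CYP3A genes share chromosome 5 with Cyp2w1, and 11 genes of other subfamilies, CYP2A and Cyp2e1 among them, are on chromosome 7. Such genes are close copies of each other, which limits what a probe can separate. For 7 genes the array design lists further P450 genes under the same probe: Cyp2a4, Cyp2c40, Cyp2d9, Cyp2j13, Cyp3a11, Cyp3a25 and Cyp3a41a. The Cyp3a11 probe is also listed for Cyp3a41a, Cyp3a41b and Cyp3a44, so these signals are not independent readings of 4 genes. The listing is capped at 4 accessions, and other probes may share targets too. The name Cyp2c44 is now Cyp2c23.

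The CYP3A genes included 4 that rose at 6 h and 1 that rose at 20 h in WT, and Cyp1a1 fell at 6 h, so the stretch just before their transcription starts is shown (bases -140 to -1, 5′ to 3′, RefSeq on GRCm38.p6). Capitals mark CAAAGTCCA, an element of the type bound by HNF4A, in the CYP3A genes, and in Cyp1a1 the xenobiotic response core GCGTG and the TATA box TATAAA. All 6 CYP3A stretches lie on the minus strand of chromosome 5 and Cyp1a1 on the plus strand of chromosome 9: Cyp3a11 at chr5:145879855-145879994, Cyp3a16 at chr5:145469724-145469863, Cyp3a41a at chr5:145720137-145720276, Cyp3a44 at chr5:145805875-145806014, Cyp3a25 at chr5:146009619-146009758, Cyp3a13 at chr5:137921620-137921759 and Cyp1a1 at chr9:57697473-57697612.
Cyp3a11: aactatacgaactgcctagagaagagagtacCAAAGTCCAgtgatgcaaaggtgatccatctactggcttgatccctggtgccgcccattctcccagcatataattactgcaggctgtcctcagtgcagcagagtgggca
Cyp3a16: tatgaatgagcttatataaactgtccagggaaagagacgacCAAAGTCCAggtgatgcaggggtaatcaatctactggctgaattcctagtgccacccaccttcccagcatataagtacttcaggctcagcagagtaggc
Cyp3a41a: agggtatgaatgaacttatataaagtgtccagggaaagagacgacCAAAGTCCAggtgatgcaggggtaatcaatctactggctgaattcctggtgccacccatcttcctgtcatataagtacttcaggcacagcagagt
Cyp3a44: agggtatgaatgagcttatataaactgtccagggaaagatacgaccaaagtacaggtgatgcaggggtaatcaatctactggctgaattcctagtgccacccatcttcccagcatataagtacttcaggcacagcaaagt
Cyp3a25: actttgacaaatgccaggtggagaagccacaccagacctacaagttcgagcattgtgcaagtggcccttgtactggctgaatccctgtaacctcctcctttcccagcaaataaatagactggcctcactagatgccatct
Cyp3a13: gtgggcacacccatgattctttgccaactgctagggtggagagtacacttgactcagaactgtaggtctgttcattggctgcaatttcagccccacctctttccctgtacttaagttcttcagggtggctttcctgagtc
Cyp1a1: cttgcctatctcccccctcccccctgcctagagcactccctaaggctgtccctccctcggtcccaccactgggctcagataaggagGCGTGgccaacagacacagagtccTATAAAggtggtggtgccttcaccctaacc

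Aligned end to end with gaps allowed, Cyp3a16, Cyp3a41a and Cyp3a44 share 91.4% to 93.6% of these 140 bases. Cyp3a11 shares 72.9% to 76.4% with them, 66.4% with Cyp3a25 and 55.7% with Cyp3a13. Promoter windows from 250 bases before to 50 after the start were given for 38 of the 46 genes. Either strand was searched for each motif. A gene was counted where any of its windows held the motif, whereas the share over all is of single windows, so the shares differ in unit. CAAAGTCCA stands in the windows of Cyp3a11, Cyp3a16, Cyp3a41a, Cyp2c40, Cyp2c65 and Cyp2c70 (15.8% of the 38 genes), against 0.5% of all 32851 windows. GCGTG stands in the windows of 7 genes (18.4% of the 38), Cyp1a1, Cyp1b1 and Cyp2w1 among them, against 32.4% of all windows. The E2F elements TTTCCCGC and TTTGGCGC, which all windows hold at 1.1% and 0.5%, are in 0 of the 38. The letters are a description of these windows and no measure of binding.

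At 6 h after LPS, WT liver held 6 P450 genes that rose and 3 that fell, of 46. Over all names 28.5% were called, 12.5% up and 16% down, so the 46 rose about as often as all names. CYP3A held most of the genes that rose: 4 of its 6 did, with a median change of 2.09 over the subfamily. In the other large subfamilies 0 of 4 CYP2A, 0 of 11 CYP2C and 0 of 5 CYP2J genes were called, and 1 of 7 CYP2D genes fell. The median change of the 46 was 0.32 on the log2 scale, beside 0.01 over all names. Under other normalizations this median lay between 0.03 and 0.17. At 20 h 35 fell and 3 rose, against 36.6% of all names called, 20.1% down and 16.5% up. The median change was then -1.76, beside -0.02 over all names.

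**Figure D1:**
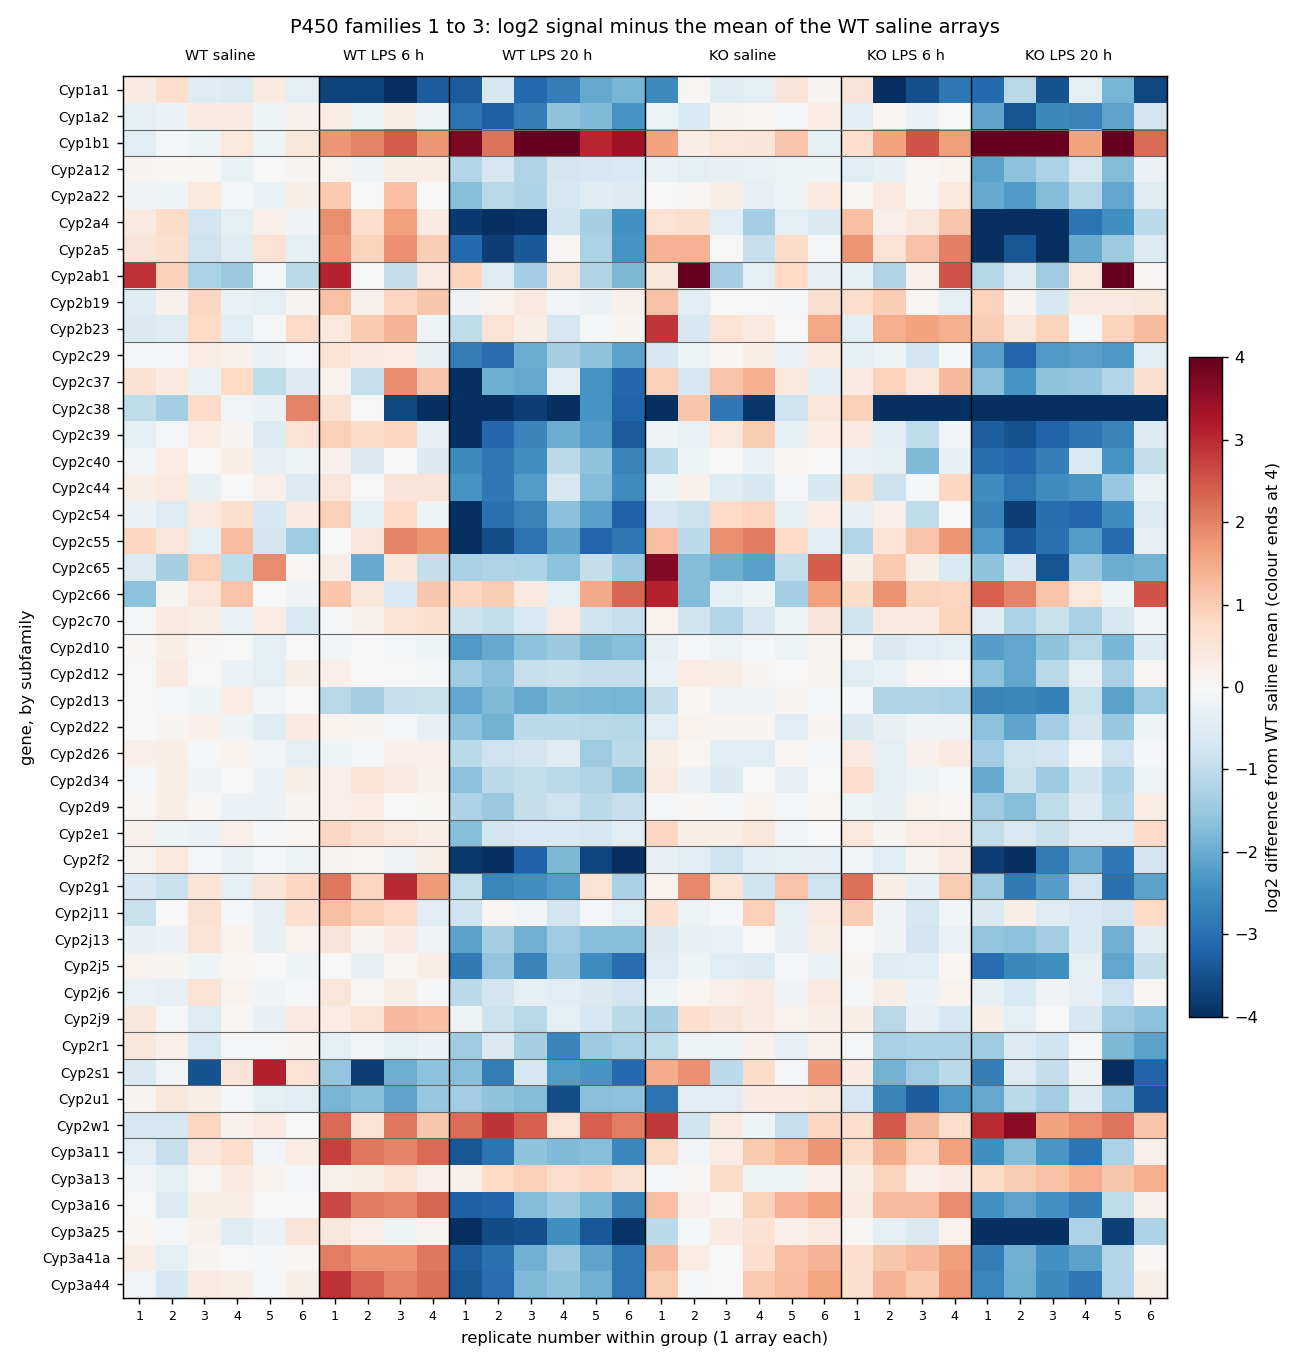
Each row is 1 of the 46 genes, ordered by subfamily, and each column 1 array in its group; colour gives the log2 difference from the mean of the WT saline arrays (red higher, blue lower, ending at 4). The 20 h arrays of both genotypes are mostly blue, with Cyp1b1, Cyp2w1 and Cyp3a13 red and Cyp2c66 red on most of them. Of the 6 CYP3A genes at the bottom, Cyp3a11, Cyp3a16, Cyp3a41a and Cyp3a44 are red at 6 h in WT.

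Of the 46 genes, 27 were not called at 6 h and fell at 20 h in WT. A further 5 rose at 6 h and fell at 20 h: Cyp3a11, Cyp3a16, Cyp3a41a, Cyp3a44 and Cyp2g1. Cyp1a1, Cyp2d13 and Cyp2u1 fell at both times, and Cyp1b1 rose at both. The 8 called at neither time were Cyp2ab1, Cyp2b19, Cyp2b23, Cyp2c65, Cyp2c66, Cyp2c70, Cyp2j9 and Cyp2j11. For 31 of the 46 genes at 20 h the WT arrays did not overlap those on saline, as for 22.2% of all names. At 6 h this held for 11 genes, and for 27.5% of all names. Per array, the median deviation of the 46 genes from the WT saline mean lay between 0.14 and 0.44 at 6 h and between -1.71 and -1.06 at 20 h. The arrays came from 3 scan dates. Within the 2 dates that hold both groups the median change at 20 h was -1.50 and -1.78. At 6 h it was 0.34 and 0.18, each from 1 array at 6 h against 3 on saline. The other WT arrays at 6 h came from the date without WT saline. All 38 and all 9 called genes kept their sign within these 2 dates, but they were called on the same arrays, so this is no separate support.

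**Figure D2:**
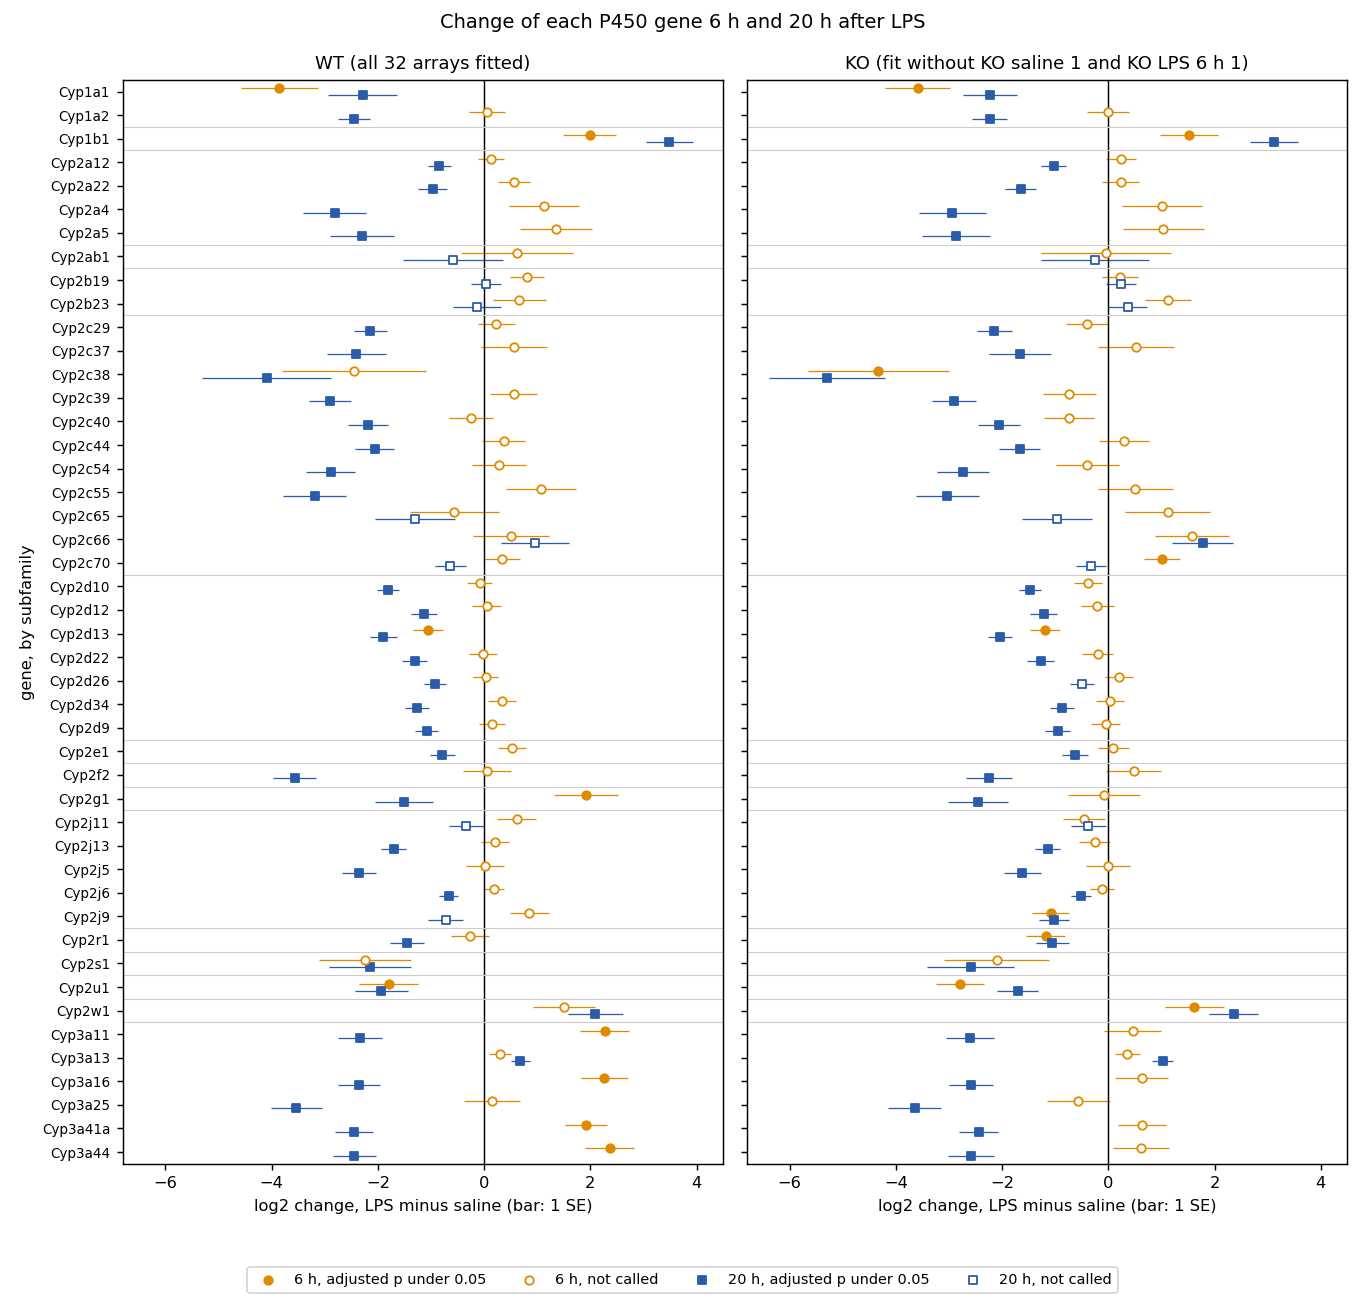
Each point is the log2 change of 1 gene against saline of its own genotype (circles 6 h, squares 20 h, filled where the adjusted p was under 0.05, bars 1 SE), for WT on the left with all arrays and KO on the right without KO saline 1 and KO LPS 6 h 1. In WT the filled squares lie left of 0 for 35 genes and right of it for 3, and 4 filled circles of CYP3A lie right of 0.

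Cyp3a11 encodes the main CYP3A enzyme of mouse liver, the counterpart of human CYP3A4 for drugs and steroids. Its probe lies on chromosome 5 at 146672058 to 146673925 (mm9), a span longer than the probe. On saline its WT level had a lowest value of 4.77, a median of 5.79 and a highest of 6.40. At 6 h the 4 WT levels were 8.44, 7.79, 7.67 and 7.95. At 20 h they ran from 2.26 over a median of 3.52 to 4.09. All 4 arrays at 6 h lay above all 6 on saline, and all 6 at 20 h below them. At 6 h the change was 2.27 ± 0.46 (SE, 4 against 6 mice), a 4.82-fold rise (adjusted p = 0.000497). The change at 20 h was -2.33 ± 0.42 (6 against 6), a 5.04-fold fall (adjusted p = 6.99e-05).

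Cyp3a16, Cyp3a41a and Cyp3a44 are neighbours of Cyp3a11 and encode CYP3A enzymes known in mice mostly from the fetal liver (Cyp3a16) and from females (Cyp3a41a and Cyp3a44). Their probes lie at 146197274 to 146197333, 146505792 to 146505851 and 146585954 to 146586013 on chromosome 5 (mm9). In WT, Cyp3a44 ran from 4.50 over a median of 5.28 to 5.56 on saline, was 8.08, 7.55, 7.18 and 7.40 at 6 h, and ran from 1.78 over 2.79 to 3.57 at 20 h. Cyp3a16 ran from 3.62 over 4.20 to 4.45, was 6.81, 6.26, 6.18 and 6.52 at 6 h, and then ran from 0.92 over 1.95 to 2.71. Cyp3a41a ran from 6.33 over 6.75 to 6.99, was 8.77, 8.47, 8.47 and 8.81, and then ran from 3.42 over 4.22 to 5.21. In each of the 3 the groups at 6 h and 20 h lay on opposite sides of saline without overlap. The changes at 6 h were 2.36 ± 0.46 for Cyp3a44, 2.26 ± 0.45 for Cyp3a16 and 1.92 ± 0.40 for Cyp3a41a, with adjusted p between 0.000296 and 0.000529. At 20 h they were -2.44 ± 0.41, -2.35 ± 0.40 and -2.44 ± 0.35.

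The other CYP3A genes did not share this course. Cyp3a25 (probe at 146789175 to 146789234), another steroid and drug oxidase of the same cluster, ran from 5.02 over 5.51 to 6.03 on saline in WT and was 5.95, 5.70, 5.32 and 5.61 at 6 h. At 20 h it ran from 1.16 over 1.96 to 3.04, below every array of the other WT groups. The change at 6 h was 0.15 ± 0.53 (adjusted p = 0.872). It reached -3.53 ± 0.48 at 20 h, an 11.6-fold fall (adjusted p = 1.98e-06), and the other probe gave -3.65. Cyp3a13 (probe at 138335318 to 138335377) is expressed in intestine as well as liver and lies apart from the cluster. In WT it ran from 4.22 over 4.60 to 4.99 on saline, was 4.78, 4.86, 5.20 and 4.81 at 6 h, and ran from 4.80 over 5.36 to 5.57 at 20 h, with some overlap. It rose at 20 h by 0.68 ± 0.18 (adjusted p = 0.00438), as the only CYP3A gene to do so in WT; at 6 h the change was 0.30 ± 0.21 (adjusted p = 0.293).

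**Figure D3:**
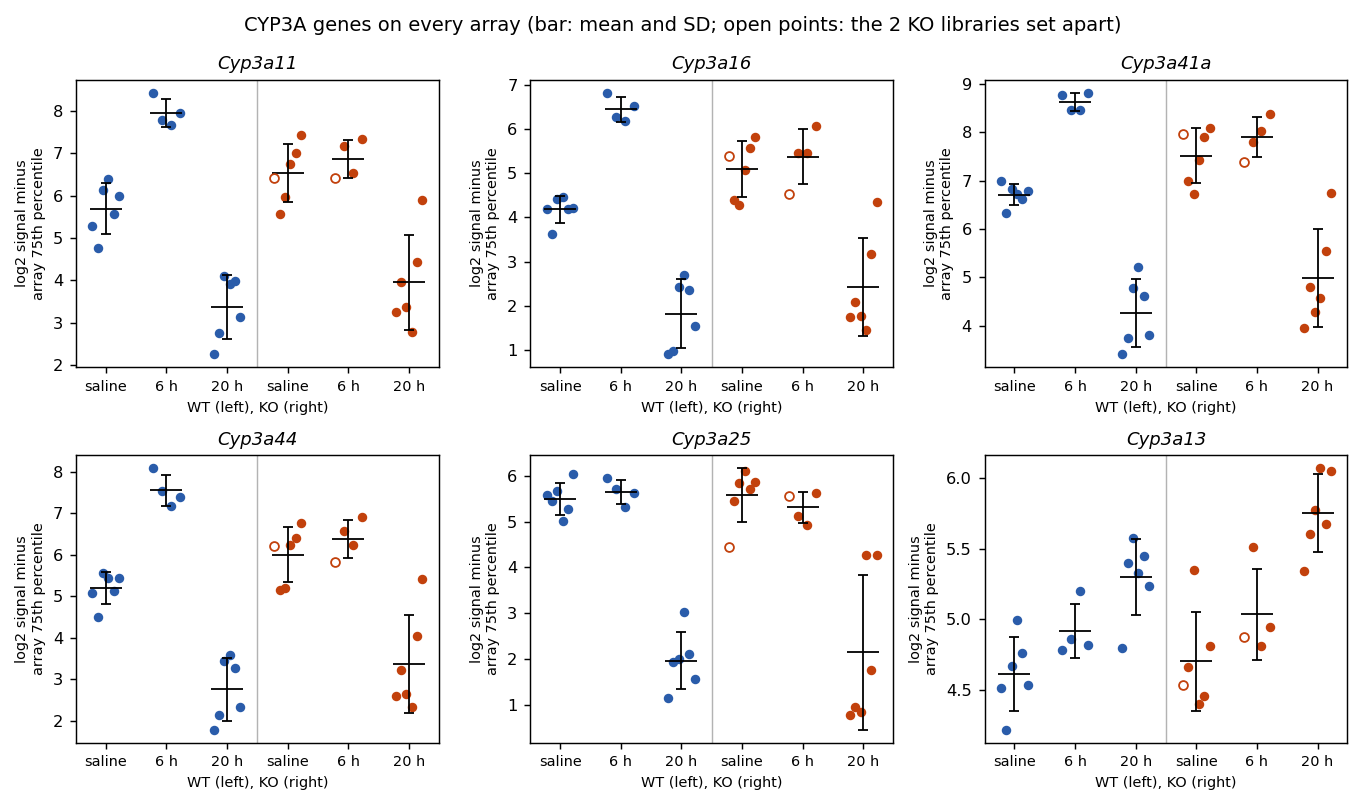
Points are single arrays of the 6 CYP3A genes (level as log2 signal relative to each array's 75th percentile, WT left, KO right), bars are mean and SD, and open points are KO saline 1 and KO LPS 6 h 1. In WT, Cyp3a11, Cyp3a16, Cyp3a41a and Cyp3a44 lie above saline at 6 h and below it at 20 h, Cyp3a25 lies below it only at 20 h, and Cyp3a13 is highest at 20 h.

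Among the KO mice the CYP3A genes were not called at 6 h. Cyp3a11 on saline ran from 5.58 over a median of 6.59 to 7.45, and the levels at 6 h were 6.41, 7.17, 6.54 and 7.33, inside that range. The change was 0.33 ± 0.46 with all arrays (adjusted p = 0.75) and 0.46 ± 0.54 without the 2 libraries (adjusted p = 0.581). For Cyp3a16, Cyp3a41a and Cyp3a44 it was 0.29, 0.38 and 0.39 with all arrays, and 0.63, 0.64 and 0.62 without. The interaction of genotype and LPS at 6 h, which tests the difference itself, was -1.94 ± 0.66 for Cyp3a11 (adjusted p = 0.296), -1.97 ± 0.63 for Cyp3a16 (adjusted p = 0.259), -1.97 ± 0.65 for Cyp3a44 and -1.54 ± 0.56 for Cyp3a41a. Without the 2 libraries it lay between -1.81 and -1.28, with adjusted p from 0.398 to 0.51. By this test the genotypes were not shown to differ in the response at 6 h. With all arrays the same 4 genes had the smallest p among the 46 on saline, where KO minus WT was 0.81 ± 0.35 for Cyp3a41a (adjusted p = 0.652) and 0.90 ± 0.40 for Cyp3a16 (adjusted p = 0.653), and 0.71 ± 0.37 and 0.84 ± 0.41 without KO saline 1 and KO LPS 6 h 1.

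At 20 h the KO mice also showed lower levels of 5 CYP3A genes. Cyp3a11 ran from 2.77 over 3.66 to 5.91 in KO, and only the array of KO LPS 20 h 6, at 5.91, reached into the saline range. Its change was -2.58 ± 0.42 (adjusted p = 5.01e-05), and -2.61 ± 0.45 without the 2 libraries. Cyp3a25 fell by 3.42 on the log2 scale (3.65 without them), and Cyp3a13 rose by 1.05 ± 0.18 (1.02 ± 0.19).

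Family 1 split 3 ways. Cyp1a1 oxidises polycyclic aromatic hydrocarbons and is the classic inducible target of the aryl hydrocarbon receptor, and Cyp1a2, its neighbour on chromosome 9, is a constitutive pericentral enzyme that oxidises caffeine. Cyp1a1 (probe at 57551535 to 57551594, mm9) ran from -3.22 over -2.70 to -1.99 on WT saline, well above background on 6 of 6 arrays. At 6 h it was -6.38, -6.39, -7.37 and -6.02, above background on 0 of 4, so that it was at least 3.52-fold lower (fitted change -3.86 ± 0.73, adjusted p = 0.00022). At 20 h it ran from -6.01 over -5.08 to -3.32, above background on 3 of 6, a change of -2.29 ± 0.65 (adjusted p = 0.00659). All arrays after LPS lay below all WT saline arrays.

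In KO, Cyp1a1 on saline ran from -5.24 over -2.84 to -2.18, the lowest being KO saline 1. At 6 h it was -2.17 in KO LPS 6 h 1 and -7.16, -6.21 and -5.55 in the others. The 2 libraries that go against their labels are therefore the ones out of place here too. The change at 6 h was -2.13 ± 0.73 with all arrays (adjusted p = 0.0869) and -3.59 ± 0.61 without them (adjusted p = 4.48e-05). At 20 h Cyp1a1 fell by 1.81 on the log2 scale (2.23 without them).

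Cyp1a2 (probe at 57528060 to 57528119) ran from 4.99 over 5.39 to 5.73 on WT saline, and was 5.69, 5.23, 5.64 and 5.23 at 6 h. At 20 h it ran from 2.12 over 2.83 to 3.78, below all of these. At 6 h the change was 0.06 ± 0.34 (adjusted p = 0.925). The later change was -2.45 ± 0.31, a 5.45-fold fall (adjusted p = 7.59e-07), and in KO -2.21 ± 0.31 (-2.24 ± 0.33 without the 2 libraries). Cyp1b1, on chromosome 17 at 80106547 to 80106606, encodes an enzyme that hydroxylates oestrogens and is known mostly from tissues other than liver. It ran from -4.80 over -4.47 to -3.89 on WT saline, above background on 3 of 6 arrays. It was -2.57, -2.37, -1.93 and -2.58 at 6 h and ran from -2.18 over -0.79 to 0.24 at 20 h, above background on every one of these arrays. Cyp1b1 rose by 1.99 ± 0.50 at 6 h (adjusted p = 0.0034) and by 3.49 ± 0.45 later (adjusted p = 1.07e-06), without overlap with saline at either time. Its dim saline signal makes the size inexact, and its other probe, above background on 9 arrays, gave 2.25 at 20 h. In KO the change was 1.01 ± 0.50 at 6 h (1.53 ± 0.55 without the 2 libraries, adjusted p = 0.0352) and 2.91 ± 0.45 at 20 h (3.11 ± 0.45 without them).

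Of 6 other listed genes that respond to the aryl hydrocarbon receptor, 3 were measured. Tiparp rose by 5.19 ± 1.02 at 6 h and by 3.22 at 20 h in WT. Ugt1a6b and Nqo1 changed at 6 h by 0.34 and 0.25, neither of them called, and fell at 20 h by 1.15 and 0.91 on the log2 scale. The transcripts of the receptor Ahr and its partner Arnt changed at 20 h by 0.00 and 0.22, neither of them called, and Arnt rose by 0.95 at 6 h.

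CYP2C is the largest group of drug, fatty acid and steroid oxidases in mouse liver. In WT, 8 of its 11 genes fell at 20 h and 0 rose, with a median change of -2.19. Cyp2c29, an abundant hepatocyte enzyme that metabolises arachidonic acid, has its probe on chromosome 19 at 39403642 to 39403701. It ran from 7.36 over 7.55 to 7.91 on WT saline, was 8.18, 7.95, 7.90 and 7.32 at 6 h, and ran from 4.56 over 5.55 to 6.29 at 20 h. The 20 h arrays all lay below the others. The change was 0.23 ± 0.35 at 6 h and -2.14 ± 0.31 at 20 h (adjusted p = 6.07e-06), and -2.02 ± 0.31 in KO at 20 h (-2.15 ± 0.33 without the 2 libraries). In KO at 20 h the arrays ran from 4.43 over 5.38 to 7.17, and the highest, KO LPS 20 h 6, lay inside the saline range.

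The other called CYP2C genes at 20 h in WT changed by between -4.09 and -2.06. Cyp2c39, known for retinoic acid oxidation in mice, fell by 2.91 on the log2 scale, Cyp2c54 by 2.89 and Cyp2c55, which is known mostly from the intestine, by 3.19. Cyp2c37, Cyp2c40 and Cyp2c44 fell by 2.41, 2.19 and 2.06. For Cyp2c38 the change of -4.09 ± 1.21 (adjusted p = 0.00893) rests on scattered arrays, 5 of 6 of them above background at 20 h: it ran from -0.57 over 0.62 to 2.79 on saline and from -5.44 over -3.23 to -1.56 at 20 h, and was 1.42, 0.79, -2.84 and -5.98 at 6 h. Its probes disagreed at 6 h, where the brightest gave -2.45 and the other 0.06, while at 20 h the other gave -3.00.

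Cyp2c70 was not called in WT at either time. It makes the muricholic acids that distinguish mouse bile from human bile. It ran from 7.18 over 7.89 to 8.14 on WT saline, was 7.75, 7.97, 8.36 and 8.44 at 6 h, and ran from 6.80 over 6.96 to 8.15 at 20 h. These ranges overlap. Changes were 0.34 ± 0.33 at 6 h and -0.63 ± 0.30 at 20 h (adjusted p = 0.0934), and in KO -0.42 ± 0.30 at 20 h (-0.32 ± 0.28 without the 2 libraries). Without the 2 libraries Cyp2c70 rose in KO at 6 h by 1.01 ± 0.34 (adjusted p = 0.0252), against 0.58 ± 0.33 with all arrays (adjusted p = 0.322). Cyp2c65 and Cyp2c66, known mostly from the intestine, changed at 20 h in WT by -1.30 (adjusted p = 0.18) and 0.96 (adjusted p = 0.244). In KO at 20 h Cyp2c66 changed by 1.20 with all arrays, not called, and rose by 1.78 without the 2 libraries.

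In CYP2A, whose enzymes oxidise coumarin and steroids, all 4 genes fell at 20 h in WT, with a median change of -1.63. Cyp2a5 ran from 6.21 over 7.11 to 7.68 on saline, was 8.77, 7.93, 8.87 and 8.02 at 6 h, and ran from 3.29 over 4.32 to 7.10 at 20 h. All 4 arrays at 6 h lay above those on saline, yet the change of 1.35 ± 0.67 was not called (adjusted p = 0.135). At 20 h Cyp2a5 fell by 2.30 on the log2 scale and Cyp2a4, whose probe also reads Cyp2a5 by its listing, by 2.82, while Cyp2a12 and Cyp2a22 fell by 0.85 and 0.97. The KO changes at 20 h were -3.06, -3.10, -1.03 and -1.64 for the 4 in that order, and -2.86, -2.94, -1.03 and -1.65 without the 2 libraries.

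CYP2D, the mouse relatives of human CYP2D6, fell at 20 h as a whole. The 7 genes all fell at 20 h in WT, by 0.93 (Cyp2d26) to 1.90 (Cyp2d13) on the log2 scale, with a median of -1.26. Cyp2d10 ran from 7.79 over 8.17 to 8.38 on saline and from 5.89 over 6.38 to 6.67 at 20 h, with no overlap (-1.82 ± 0.21, adjusted p = 2.55e-07). Cyp2d13 was the one that had fallen by 6 h: it ran from 2.98 over 3.14 to 3.48 on saline and was 2.06, 1.84, 2.25 and 2.28 at 6 h, a change of -1.06 ± 0.29 (adjusted p = 0.00642). At 20 h it ran from 1.09 over 1.32 to 1.38. A dimmer probe for Cyp2d22, above background on 25 arrays, gave -5.90 at 6 h, whereas the brightest gave -0.02 and another -0.14, so its probes disagree there. In KO all 7 fell at 20 h with all arrays and 6 of 7 without the 2 libraries, where Cyp2d26 changed by -0.50 ± 0.22 (adjusted p = 0.0779).

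Cyp2e1, which oxidises ethanol and paracetamol in pericentral hepatocytes, ran from 7.63 over 7.85 to 8.07 on WT saline. It was 8.69, 8.47, 8.27 and 8.12 at 6 h and ran from 6.15 over 7.22 to 7.43 at 20 h. Each of the groups lay apart from the others, but the change of 0.53 ± 0.26 at 6 h was not called (adjusted p = 0.134). At 20 h it fell by 0.79 on the log2 scale (SE 0.23, adjusted p = 0.00882), and in KO by 0.73 (0.62 without the 2 libraries). Cyp2f2, known from periportal hepatocytes and from the club cells of the airway, showed a larger fall. On WT saline it ran from 8.39 over 8.61 to 9.06, at 6 h it was 8.74, 8.70, 8.50 and 8.86, and at 20 h it ran from 3.98 over 4.88 to 6.83. The change at 20 h was -3.57 ± 0.40, an 11.9-fold fall (adjusted p = 1.97e-07). In KO at 20 h it ran from 4.47 over 5.82 to 7.90, against 7.81 over 8.24 to 8.34 on saline, a change of -2.27 ± 0.40 (-2.24 ± 0.43 without the 2 libraries). The difference between these changes, 1.30 ± 0.57, had the smallest p of the 46 genes for the interaction at 20 h with all arrays and was not called (adjusted p = 0.7). Leaving out the 2 libraries gave 1.33 ± 0.60 (adjusted p = 0.619).

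**Figure D4:**
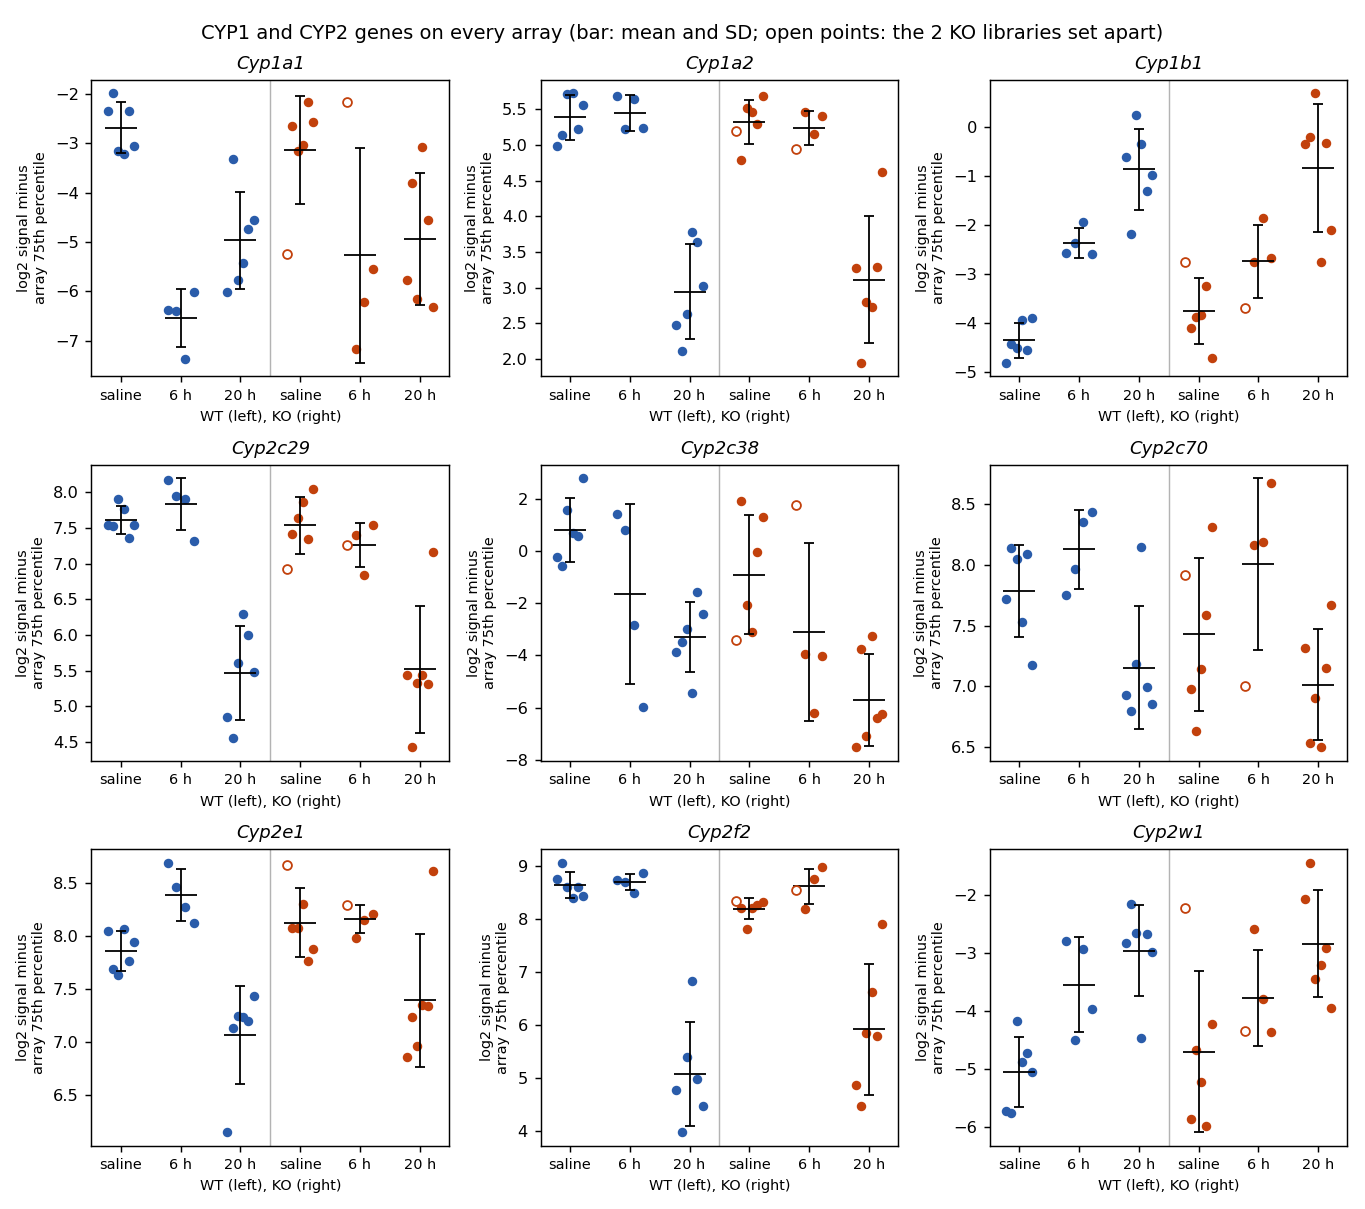
Points are single arrays of 9 genes of families 1 and 2 (level as log2 signal relative to each array's 75th percentile, WT left, KO right), with mean and SD, and open points for KO saline 1 and KO LPS 6 h 1. Cyp1a1 is lowest at 6 h in WT, Cyp1b1 and Cyp2w1 are higher after LPS, and Cyp1a2, Cyp2c29 and Cyp2f2 are lower at 20 h, with the highest KO array at 20 h near or inside the saline range.

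CYP2J enzymes epoxidise fatty acids. At 20 h in WT 3 of the 5 genes fell: Cyp2j5, abundant in kidney and liver, by 2.36 on the log2 scale, Cyp2j13 by 1.70 and Cyp2j6 by 0.66. Cyp2j9, known mostly from the brain, ran from -0.05 over 0.45 to 0.92 on WT saline, was 0.76, 1.05, 1.76 and 1.67 at 6 h, and in KO at 6 h was 0.69, -0.63, 0.13 and -0.21. All 4 KO arrays at 6 h lay below all 4 WT arrays, but the highest of them, KO LPS 6 h 1 at 0.69, was close to the lowest WT array at 0.76. The share of all names without overlap was not counted for this comparison. KO minus WT at 6 h was -1.32 ± 0.40 with all arrays (adjusted p = 0.109) and -1.55 ± 0.36 without the 2 libraries (adjusted p = 0.0264). Its interaction at 6 h was -1.41 ± 0.52 (adjusted p = 0.356), and -1.93 ± 0.46 without them (adjusted p = 0.0819).

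Among the subfamilies with 1 gene, Cyp2r1, a vitamin D hydroxylase, fell at 20 h by 1.45 on the log2 scale in WT and by 0.90 in KO (1.05 without the 2 libraries). Cyp2u1, a fatty acid hydroxylase on chromosome 3, ran from 0.55 over 1.03 to 1.44 on WT saline, was -0.87, -0.71, -1.12 and -0.54 at 6 h, and ran from -2.55 over -0.67 to -0.42 at 20 h. It fell by 1.79 at 6 h and 1.93 at 20 h, and the arrays after LPS did not overlap saline. In KO its change at 6 h was -1.78 ± 0.55 with all arrays (adjusted p = 0.0668) and -2.79 ± 0.46 without the 2 libraries. Cyp2s1, known mostly from epithelia, changed by -2.25 ± 0.87 at 6 h (adjusted p = 0.0522) and fell by 2.15 at 20 h.

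Cyp2w1, known from the fetal gut and from tumours, ran from -5.75 over -4.97 to -4.18 on WT saline and from -4.46 over -2.75 to -2.15 at 20 h, and was -2.80, -4.50, -2.92 and -3.96 at 6 h. It was above background on 3 of 6, 5 of 6 and 2 of 4 of these arrays. Cyp2w1 rose by 2.09 ± 0.52 at 20 h (adjusted p = 0.0023), and by 1.86 ± 0.52 in KO (2.36 ± 0.46 without the 2 libraries). Cyp2g1, known from the olfactory epithelium, ran from -4.24 over -3.28 to -2.54 on saline, was -1.25, -2.49, -0.35 and -1.66 at 6 h, and ran from -5.96 over -5.12 to -2.76 at 20 h. Cyp2g1 rose by 1.92 ± 0.61 at 6 h (adjusted p = 0.0182) and later fell by 1.50 (adjusted p = 0.0309), with few arrays above background at 20 h (2 of 6). Cyp2b19 and Cyp2b23, the CYP2B genes kept here, and Cyp2ab1 were dim and changed at 20 h in WT by 0.03, -0.13 and -0.58, none of them called.

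From 6 h to 20 h in WT, 34 of the 46 genes fell and 1 rose (34.2% of all names were called, 17.2% down and 17% up), and the median change was -1.55. In KO 30 fell and 2 rose (15.6% of all names were called, 8.33% down and 7.23% up). Without the 2 libraries 28 fell and 2 rose there, where 22.3% of all names were called, 10.9% down and 11.5% up.

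In KO at 20 h, 33 of the 46 genes fell and 3 rose against KO saline, where 26.3% of all names were called, 14.6% down and 11.7% up. Without the 2 libraries 35 fell and 4 rose, with 34.8% of all names called, 18.9% down and 16% up. The median change was -1.61, and -1.64 without them. With KO LPS 20 h 4 left out as well, chosen after the data were seen, 35 fell and 4 rose, where 41.1% of all names were called. Within the 3 scan dates the median change with all arrays was -1.90, -1.28 and -1.14. All 33 that fell in KO with all arrays fell in WT as well, and the 3 that rose were Cyp1b1, Cyp2w1 and Cyp3a13 in both genotypes. Without the 2 libraries Cyp2c66 rose in KO as well. The KO arrays were more spread than WT: the per-array median deviation at 20 h lay between -2.03 and -1.50 for 4 of them, and was -0.75 for KO LPS 20 h 4 and -0.31 for KO LPS 20 h 6. In KO at 20 h the arrays did not overlap saline for 6 of the 46 genes (3.85% of all names), and for 13 without the 2 libraries (13.3% of all names).

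In KO at 6 h, 0 of the 46 genes were called with all arrays, where limma called 2.61% of all names, and 4 had an unadjusted p under 0.05. Without the 2 libraries 3 rose (Cyp1b1, Cyp2c70 and Cyp2w1) and 6 fell (Cyp1a1, Cyp2c38, Cyp2d13, Cyp2j9, Cyp2r1 and Cyp2u1), where 29.1% of all names were called, 12.8% up and 16.3% down. The Cyp2c38 call rests on 1 array above background among the 3 at 6 h, so no size is given. Cyp2r1 changed there by -1.18 ± 0.37 (adjusted p = 0.0161) and Cyp2d13 by -1.19 ± 0.28 (adjusted p = 0.00177). Within the 3 scan dates the median change with all arrays was -0.13, 0.14 and -0.10.

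Between genotypes limma called 0 of the 46 on saline, where 0.338% of all names were called, and 2 had an unadjusted p under 0.05. Leaving out the 2 libraries gave 0 there too (0 unadjusted, 0.364% of all names). At 6 h it called 0 with all arrays (4 unadjusted, 1.26% of all names), and without the 2 libraries Cyp2j9 alone, where 1.34% of all names were called. At 20 h it called 0 (4 unadjusted, 0.322% of all names), also without the 2 libraries (4 unadjusted, 0.52% of all names), and with all arrays the smallest p belonged to Cyp3a13, at 0.46 ± 0.18 (adjusted p = 0.491), and Cyp2a22, at -0.66 ± 0.27 (adjusted p = 0.511). The interaction of genotype and LPS gave 0 calls at 6 h (5 unadjusted, 0.125% of all names) and 0 at 20 h (1 unadjusted, 0.0416% of all names). With the 2 libraries left out these counts were also 0 (6 unadjusted, 0.151% of all names) and 0 (1 unadjusted, 0.0572% of all names). At 20 h Cyp2j13 followed Cyp2f2, at 0.64 ± 0.32 (adjusted p = 0.772), and 0.56 ± 0.33 without them.

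The proteins that feed P450 enzymes with electrons and heme were read from lists of known partners. At 20 h in WT, where 20.1% of all names fell and 16.5% rose, 6 of 8 electron donors fell and 1 rose. The one that rose was Por, the reductase itself, at 1.02 ± 0.31, and it had risen by 1.49 ± 0.35 at 6 h. The largest fall was that of Cyb5r3, the cytochrome b5 reductase, by 2.07 on the log2 scale. Of 13 genes of heme synthesis and breakdown 9 fell and 2 rose. Alas1, the first and rate-limiting step of heme synthesis in liver, rose by 1.84, Alad, the next step, fell by 2.76, and Hmox1, which degrades heme, rose by 1.70. At 6 h Alas1 and Hmox1 rose, by 1.30 and 2.12, and 0 of the 13 fell, where 12.5% of all names rose and 16% fell. In KO at 20 h the counts were 6 fallen and 1 risen of 8 electron donors, and 7 fallen and 2 risen of 13 heme genes. With the 2 libraries left out they were again 6 and 1, and 7 and 3. Of all names 14.6% fell and 11.7% rose there with all arrays, and 18.9% and 16% without the 2 libraries.

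Of 23 transcription factors known to act on P450 genes, 8 fell and 1 rose at 20 h in WT. Over all names 36.6% were called there, 20.1% down and 16.5% up. In total the list was called about as often as all names, but its calls were mostly down. Dbp, a clock output factor, fell by 3.32, Nr0b2 by 2.92, Nr1i3 (CAR, the constitutive androstane receptor) by 2.14 and Cebpa by 1.80 on the log2 scale. Hnf4a rose by 0.58, and Nr1i2 (PXR, the pregnane X receptor) changed by -0.28, not called. At 6 h, 3 fell and 2 rose, among them Cebpb by 2.23, where 16% of all names fell and 12.5% rose. In KO 4 of the 23 fell at 20 h with all arrays and 6 without the 2 libraries, beside 14.6% and 18.9% of all names. Of 24 measured P450 genes of other families, 13 fell and 1 rose at 20 h in WT, with a median change of -1.28. At 6 h 6 of those 24 fell and 0 rose, Cyp7a1, which starts the synthesis of bile acids from cholesterol, by 8.34 on the log2 scale.

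Zonation lists without any of the 46 genes were set beside the fall at 20 h, where 20.1% of all names fell and 16.5% rose in WT. All 10 pericentral genes fell in WT, Lgr5 by 5.39, Axin2 by 2.70 and Glul, which makes glutamine around the central vein, by 1.37 on the log2 scale. Of 9 measured periportal genes 7 fell and 1 rose, with Aldh1b1 at -3.42 and Arg1 at 0.58. The medians of the lists were -2.05 and -2.30. In KO 8 of 10 pericentral genes fell and 0 rose, and 7 of 9 periportal genes fell and 1 rose. These counts were the same without the 2 libraries. Of all names 14.6% fell and 11.7% rose in KO with all arrays, and 18.9% and 16% without the 2 libraries.

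Cell markers moved beside these results, and their part in them was not tested. Of all names in WT, 12.5% rose and 16% fell at 6 h, and 16.5% rose and 20.1% fell at 20 h. The log2 of the summed signal of 6 hepatocyte markers ran from 10.83 to 11.37 on WT saline, from 11.35 to 11.69 at 6 h and from 10.61 to 11.47 at 20 h, with 3 of 6 fallen and 1 risen at 20 h. All 5 neutrophil markers rose at both times in WT, and their sum ran from -0.30 to 3.15 on saline, 5.73 to 6.56 at 6 h and 5.71 to 7.02 at 20 h. In KO that sum ran from 0.16 to 8.32, 3.11 to 8.05 and 6.07 to 7.38. Its highest value on saline was that of KO saline 1 and its lowest at 6 h that of KO LPS 6 h 1, and without these the ranges were 0.16 to 1.43 and 7.22 to 8.05. Of 5 Kupffer cell markers 4 fell and 1 rose at 20 h in WT, of 4 stellate cell markers 3 fell and 1 rose, and of 5 sinusoidal endothelium markers 1 fell and 1 rose. Of 6 lung markers, Sftpc, Sftpb and Ager were above background on fewer than 4 arrays, and 2 of the other 3 rose at both times, their sum running from -3.86 to -1.83 on saline and from -0.99 to 1.29 at 20 h. Of 4 bile duct markers 1 rose and 1 fell at 20 h, and of 4 pancreatic acinar markers Cpa1 stood above background on 1 array and the brightest Pnlip probe on 0, while Cela1 and Amy2 had no probe under those names.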

How the data were processed

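Liver RNA of 32 mice (1 array each, 6 groups per the labels) was read on 1-colour Agilent arrays. Per the file headers, the authors' Feature Extraction 10.7.1.1 gave each spot a processed intensity, with background subtracted and spatial trends removed, and this signal was the starting point. A deposited table of log2 values, for which no source used here states the normalization, served as an alternative.

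Control and outlier spots were left out and spots of a probe averaged. The intensity was taken as log2 and each array's 75th percentile subtracted. Probes had to stand well above background on 4 or more arrays, and the brightest stood for its gene name. Limma 3.58.1 in R 4.3.3 fitted group means over all arrays with eBayes (11 two-sided comparisons, Benjamini-Hochberg adjustment), after a test on simulated data. The number of arrays limits precision, and no spot carries a saturation flag. In none of 15 pairs of groups did the deviations of every same-numbered pair of arrays correlate over 0.1. For WT saline with KO saline, and KO saline with KO LPS 20 h, 4 of 6 did. So strict a rule cannot exclude pairing, and the arrays were treated as unpaired. Named in each subfamily were the largest called rise and fall and the brightest gene, with further genes by adjusted p in large subfamilies, and in each partner list the largest called rise and fall. Genes named beyond this (Axin2, Glul, Hmox1, Nr0b2, Nr1i2, Nr1i3, Cebpa, Ahr, Arnt, Nqo1 and further P450 genes) were chosen for their known roles after values were seen. Members and lists were chosen with earlier results of these data known. A gene of the factor list is not reported here. Alternatives were other normalizations, filters, probe rules, blocks and samples. Promoters are RefSeq's on GRCm38.p6, probe positions the array design's on mm9.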

Additional observations from a re-analysis of the deposited data

Results flagged for a closer look

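Each gene was checked in each group for an array far from its neighbours: 24 of 276 sets of values held one whose gap to the nearest array was large against the range of the group (Dixon's test). Chance alone marks about 1 in 20 such sets. The library KO saline 1 accounts for 5: Cyp1a1 (-5.24), Cyp2c40 (6.17), Cyp2d13 (2.21), Cyp2j9 (-0.875) and Cyp2u1 (-1.95) were each lowest of their group. KO LPS 6 h 1 accounts for 3, with Cyp2d13 (3.11) and Cyp2r1 (0.877) highest and Cyp2b23 (-5.73) lowest. These are the libraries that go against their labels.

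KO LPS 20 h 6 accounts for 4, in all of which it was the highest array: Cyp2c29 (7.17), Cyp2c39 (4.76), Cyp2c55 (-1.95) and Cyp2e1 (8.61). WT LPS 20 h 4 was highest for Cyp2c70 (8.15) and lowest for Cyp2u1 (-2.55) and Cyp2w1 (-4.46). WT LPS 6 h 2 was lowest for Cyp2c44 (6.35) and Cyp2s1 (-6.28). Single cases were the lowest arrays of Cyp2a12 in WT saline 4 (5.61), Cyp2e1 in WT LPS 20 h 1 (6.15), Cyp2f2 in KO saline 3 (7.81), Cyp2c40 in KO LPS 6 h 3 (5.45) and Cyp3a16 in WT saline 2 (3.62), and the highest arrays of Cyp2ab1 in KO LPS 20 h 5 (-2.33) and Cyp2c66 in KO LPS 6 h 2 (-2.79). All of these are levels, in log2 relative to each array's 75th percentile.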

How the results depend on the processing

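Of 63 called values of named genes in the comparisons of LPS with saline, 0 reversed under 14 alternatives, and at most 5 lost their call under any one of them (the deposited processed table, normexp with quantile normalization, and only the groups compared). Cyp2e1 at 20 h in WT was among those lost, at -0.51 under normexp and -0.48 in the deposited table. The count of called P450 genes at 6 h in WT went from 9 to 14 with only the groups compared, while the share of all names called went from 28.5% to 34.4%. In KO at 6 h it went from 0 (2.61% of all names) to 9 without KO saline 1 and KO LPS 6 h 1 (29.1%), and to 10 with KO LPS 20 h 4 also left out (31.1%), which was chosen after the data were seen. From 6 h to 20 h in KO it went from 32 (15.6% of all names) to 10 with only the groups compared (1.62%). Between genotypes at 6 h it went from 0 (1.26%) to 1 without both libraries (1.34%), and to 1 with the third also left out (1.98%). The cause of these shifts was not tested. Leaving out 1 array at a time gave 8 to 12 calls at 6 h and 36 to 39 at 20 h in WT, 0 to 4 and 33 to 39 in KO, 32 to 36 from 6 h to 20 h in WT and 24 to 33 in KO, 0 to 1 between genotypes at 6 h, and 0 for the other genotype and interaction comparisons. The 4 came without KO LPS 6 h replicate 1, and the 1 without KO saline replicate 1. With the replicate number as a block, although no pairing by number was shown, the counts were 9 at 6 h and 38 at 20 h in WT, 0 and 34 in KO, 35 and 30 from 6 h to 20 h, and 0 for every comparison of genotypes. Quantile normalization and median centring moved the median of all names at 6 h in WT from 0.01 to -0.12 and -0.14, and that of the P450 genes from 0.32 to 0.09 and 0.17, so relative to all names the latter stayed higher. Under normexp with quantile normalization and in the deposited table the P450 median at 6 h in WT was 0.03 and 0.06, beside -0.08 and -0.14 over all names. At 20 h it shrank from -1.76 to -1.17 and -1.41 in WT, and from -1.61 to -1.09 and -1.31 in KO. Of the genes with a change called above, Cyp1a1, Cyp1b1, Cyp2c38, Cyp2c55, Cyp2c66, Cyp2g1, Cyp2s1 and Cyp2w1 were above background on some arrays only, which limits the exactness of their changes.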
